A study of Homo sapiens with 12 samples.

Results

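The 10 genes described here make protein-bound lipoic acid, carry it, or work beside the proteins that carry it: FDX1, LIAS, LIPT1, LIPT2, DLAT, DLST, GCSH, DLD, PDHA1 and PDHB. They were chosen by name and found by Ensembl identifier among the 47634 gene identifiers listed for each of 12 libraries. LIPT2 had a count in 7 libraries and the other 9 genes in all 12. The same 9 genes passed the filter on low counts and were tested. LIPT2 did not pass it, and its counts are given without a test.

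Lipoic acid is a sulfur-containing cofactor that is built on its carrier proteins inside mitochondria. The ferredoxin FDX1 passes electrons to iron-sulfur enzymes, and the iron-sulfur enzyme LIAS inserts the sulfur atoms into a fatty acyl chain that LIPT2 places on GCSH and LIPT1 moves on to the other carriers. The carriers DLAT and DLST are the core subunits of the pyruvate and 2-oxoglutarate dehydrogenases, DLD reoxidises their lipoyl arms, and PDHA1 and PDHB form the pyruvate-decarboxylating subunit. Cuproptosis is a form of cell death in which copper binds lipoylated proteins and makes them aggregate, while iron-sulfur proteins are lost. Hepatocytes draw on these enzymes to burn pyruvate and glycine, and they are also the cells that excrete copper through ATP7B.

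HepG2 is a line of human hepatocellular carcinoma cells. The libraries came from HepG2 cells that were wild type or carried a knockout (KO) of ATP7B, whose product pumps copper out of the cell and is defective in Wilson disease. Each genotype was untreated or kept with copper for 24 h, which gives the groups wild type untreated, wild type copper, ATP7B KO untreated and ATP7B KO copper, with 3 libraries each. All cells share the HepG2 background, 1 KO line stands for the knockout, and the labels give neither the copper dose nor where ATP7B was edited. The labels call the replicates biological without saying what separates them, so p-values measure the spread between these libraries, which may in part be technical.

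ATP7B had 48, 50 and 44 counts in wild type untreated, 10, 9 and 10 in wild type copper, 13, 2 and 38 in ATP7B KO untreated and 11, 10 and 17 in ATP7B KO copper, and with no edited site given, its 3′ counts do not check the knockout. Libraries held 976658 to 3829151 counts, and the level of a gene is given as CPM, its count scaled to a library total of 1000000. Replicates 1 and 2 of the ATP7B KO untreated group and replicate 1 of the wild type copper group stood apart on the leading principal component, which held 44.2% of the variance (111, 120 and 23.9, against -44.8 to -4.39 in the other 9). Ribosomal protein genes took 5.75%, 4.99% and 8.89% of their counts and 9.65% to 13.5% in the others. These 3 libraries were also the shallowest, with 1443372, 976658 and 1873703 counts, against 2295050 to 3829151 in the others. They had the fewest genes detected, 14232, 13481 and 15012, against 15836 to 17269. The part of depth in this split was not tested. The main results of the tested genes among the 10 are therefore given with all 12 libraries and without these 3. The latter leaves ATP7B KO untreated replicate 3 alone in its group. For other genes named below this was done for some only, and counts of called genes in their lists rest on all 12 libraries. All 8 hepatocyte markers were counted in every group. They summed to 18039 to 18822 CPM in wild type untreated and 8476 to 9377 in wild type copper. In ATP7B KO the sum was 8481 to 10162 CPM untreated and 3649 to 3867 in copper. ALB, AFP, APOA1, TTR and TF were lower in every ATP7B KO untreated library than in any wild type untreated one, as were 19.1% of all tested genes. APOB was higher there (2959 to 3164 against 1629 to 2048 CPM), as were 25.7%, and SERPINA1 and HNF4A overlapped. Of 5 fibroblast markers, 4 or 5 had a count per group (2.08 to 52.6 CPM summed, LUM at 0 in ATP7B KO untreated and DCN at 0 in ATP7B KO copper). Of 3 endothelial markers found, 1 or 2 had one (0 to 10.2 CPM, KDR at 0 throughout). Of 5 immune markers, 3 or 4 had one (186 to 1469 CPM, CD3E at 0 throughout and PTPRC at 0 outside wild type untreated). LYZ made nearly all of that sum, at 1332 to 1454 CPM in wild type untreated, 264 to 832 in wild type copper, 195 to 420 in ATP7B KO untreated and 178 to 215 in ATP7B KO copper, while CD68 was at most 22.9 and CD14 at most 2.14 CPM. The part of these differences in the results below was not tested. In such bulk libraries, fewer cells of a type and less RNA per cell cannot be told apart.

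FDX1, the electron donor of the pathway, was lowest in the libraries that stood apart. In replicates 1 to 3 its level was 13.7, 12.8 and 16.6 CPM in wild type untreated and 4.27, 10 and 11.2 CPM in wild type copper. In ATP7B KO it was 0.693, 6.14 and 22.6 CPM untreated and 27.1, 17.6 and 14.3 CPM in copper. All 3 wild type copper libraries lay below all 3 wild type untreated libraries and below all 3 ATP7B KO copper libraries. The untreated ATP7B KO libraries ranged from the lowest level of all 12 to the second highest, with the lowest value resting on 1 count and replicate 2 on 6. The counts behind FDX1 ran from 1 to 76 per library, so its 95% Poisson intervals are wide (1.84 to 8.41 CPM at 4.27 CPM, 17.7 to 28.3 CPM at 22.6 CPM).

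LIAS, the lipoyl synthase, was lowest in ATP7B KO cells with copper. It stood at 12.9, 17.0 and 16.0 CPM in wild type untreated, 20.8, 18.7 and 16.7 CPM in wild type copper and 15.2, 18.4 and 13.4 CPM in ATP7B KO untreated. In ATP7B KO copper it stood at 7.12, 10 and 8.76 CPM. Those 3 libraries lay below each of the other 9, while the other groups overlapped each other. The mean was 8.64 ± 1.5 CPM (SD, n = 3) in ATP7B KO copper and 18.7 ± 2.1 CPM in wild type copper. LIAS counts ran from 18 to 65 per library. RPL9, on the opposite strand, overlaps the 5′ end of LIAS but not its 3′ end, where this assay reads.

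LIPT1, the lipoyl transferase, and LIPT2, the octanoyl transferase, were near the limit of detection. LIPT1 had 3 to 14 counts per library, 1.32 to 3.13 CPM in wild type untreated, 2.32 to 4.27 in wild type copper, 1.83 to 9.70 in ATP7B KO untreated and 1.26 to 4.99 in ATP7B KO copper, and all groups overlapped. MITD1, on the opposite strand, covers the 3′ end of LIPT1 and had 1198 counts in all against 94 for LIPT1. On the same strand, AC079447.1 covers that end too and had 0 counts. The LIPT1 counts are therefore uncertain, with an annotation and a strand setting not given in the sources used here. In wild type untreated LIPT2 had 1, 1 and 2 counts, against 0 in all 3 wild type copper libraries, where 3 counts would be 1.60, 1.31 and 1.16 CPM. It had 2, 17 and 7 counts in ATP7B KO untreated and 2, 0 and 0 in ATP7B KO copper. Of its 32 counts, 17 came from ATP7B KO untreated replicate 2, which is the shallowest library and stood apart.

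Of the carriers of lipoic acid, DLAT ranged from 3.07 to 31.7 CPM. DLAT, the core subunit of pyruvate dehydrogenase, had 23.5, 29.2 and 27.0 CPM in wild type untreated and 8.54, 13.5 and 15.1 CPM in wild type copper. In ATP7B KO it had 4.85, 3.07 and 31.7 CPM untreated and 27.4, 18.8 and 25.1 CPM in copper. The wild type copper libraries lay below all wild type untreated and all ATP7B KO copper libraries. ATP7B KO untreated replicates 1 and 2, with 7 and 3 counts, held the lowest DLAT values and replicate 3, with 104 counts, the highest. As for FDX1 and PDHB, replicate 3 was the highest of its group. DLST, the core of 2-oxoglutarate dehydrogenase, stayed between 1.83 and 8.19 CPM and GCSH, the carrier of the glycine cleavage system, between 1.68 and 4.85 CPM. Their 4 group means were 4.96 to 5.60 CPM for DLST and 2.71 to 3.42 CPM for GCSH, and no pair of groups was separated for either gene. GCSH has copies elsewhere in the genome. Of its 6 listed pseudogenes, GCSHP5 had 23 counts against 93 for GCSH, so reads may be split between them. AC092718.3, on the same strand, also covers GCSH at its 3′ end and had 9 counts. Some reads there may therefore not have been assigned to GCSH, and its low level is uncertain.

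DLD, the lipoamide dehydrogenase that all these complexes share, was highest within its group in 2 of the 3 libraries that stood apart. Its level was 53.5, 50.7 and 64.0 CPM in wild type untreated, 68.8, 61.4 and 46.9 CPM in wild type copper and 62.7, 74.5 and 70.5 CPM in ATP7B KO copper. The ATP7B KO untreated libraries had 89.4, 177 and 69.6 CPM. All 3 of these exceeded every wild type untreated library, but replicate 3 lay within the range of ATP7B KO copper. LAMB1 covers the 3′ end of DLD from the opposite strand, with 4462 counts against 2077 for DLD, so that without the strand setting DLD reads cannot be told from LAMB1 reads there. The 3′ ends of DLAT and PDHA1 are also covered by an opposite gene, but these had few counts (PIH1D2 17 against 682 for DLAT, MAP3K15 44 against 4431 for PDHA1).

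PDHA1 and PDHB, the alpha and beta chains of the decarboxylating subunit, had 4431 and 1327 counts in all. PDHA1 had 165, 184 and 164 CPM in wild type untreated and 106, 90.6 and 133 CPM in wild type copper. In ATP7B KO it had 185, 176 and 140 CPM untreated and 122, 108 and 107 CPM in copper. In both genotypes every copper library was below every untreated library. PDHB had 63.5, 68.9 and 66.3 CPM in wild type untreated and 22.4, 30.9 and 32.5 CPM in wild type copper. In ATP7B KO its levels were 4.85, 22.5 and 43.9 CPM untreated and 29.9, 24.3 and 29.5 CPM in copper. Each of the 9 libraries outside the wild type untreated group held less PDHB than every wild type untreated library.

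**Figure D1:**
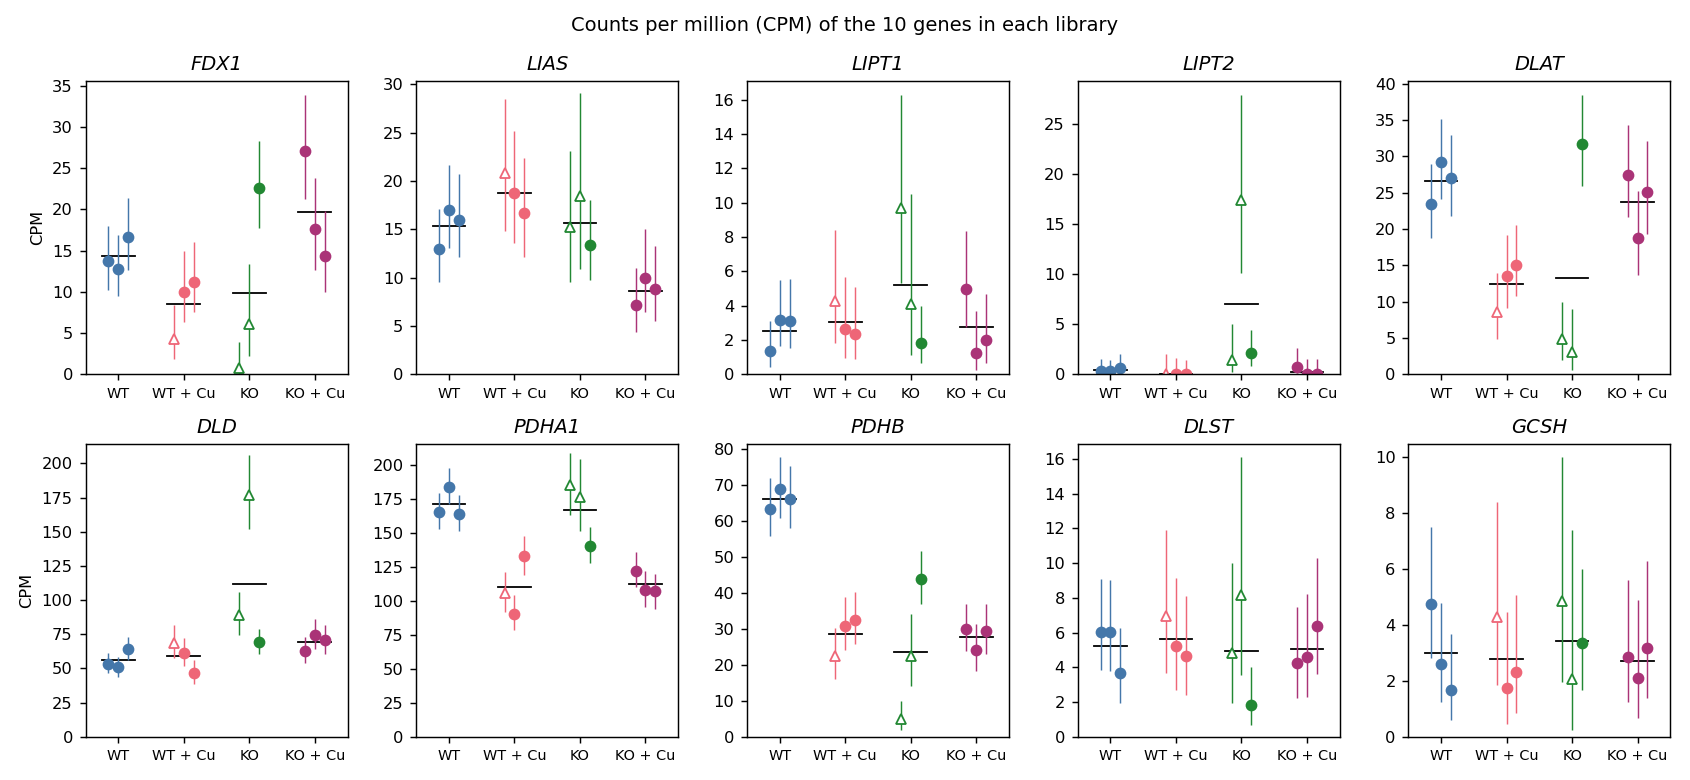
CPM of each of the 10 genes (vertical axes, one scale per gene) in the 12 libraries (WT, wild type; Cu, copper; KO, ATP7B KO). Points are libraries with exact 95% Poisson intervals that cover counting error only, horizontal lines are group means, and open triangles are the 3 libraries that stood apart. FDX1, DLAT and PDHB were lower in ATP7B KO untreated replicates 1 and 2 (0.693 to 22.5 CPM) than in replicate 3. DLD was higher there (89.4 and 177 CPM) than in replicate 3.

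The genes of pyruvate dehydrogenase did not keep 1 proportion to each other across libraries. PDHB made up 27.8%, 27.3% and 28.8% of the summed PDHB and PDHA1 counts in wild type untreated, 17.5%, 25.4% and 19.7% in wild type copper and 19.7%, 18.4% and 21.6% in ATP7B KO copper. In ATP7B KO untreated it made up 2.55%, 11.3% and 23.8%. The share in each wild type untreated library was thus above that in each of the other 9. DLAT made up 12.4%, 13.7% and 14.1% of the summed DLAT and PDHA1 counts in wild type untreated and 7.48%, 13% and 10.2% in wild type copper. It made up 2.55%, 1.71% and 18.4% in ATP7B KO untreated and 18.3%, 14.9% and 19.0% in ATP7B KO copper. DLAT was thus a larger share in all 3 ATP7B KO copper libraries than in any wild type library of either treatment. DLD made up 94.9% and 98.3% of the summed DLD and DLAT counts in ATP7B KO untreated replicates 1 and 2, 89.0% in wild type copper replicate 1 and 63.4% to 82.0% in the other 9. These shares are descriptions without a test, and they compare 1 pair of genes between libraries, not the amounts of the proteins.

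**Figure D2:**
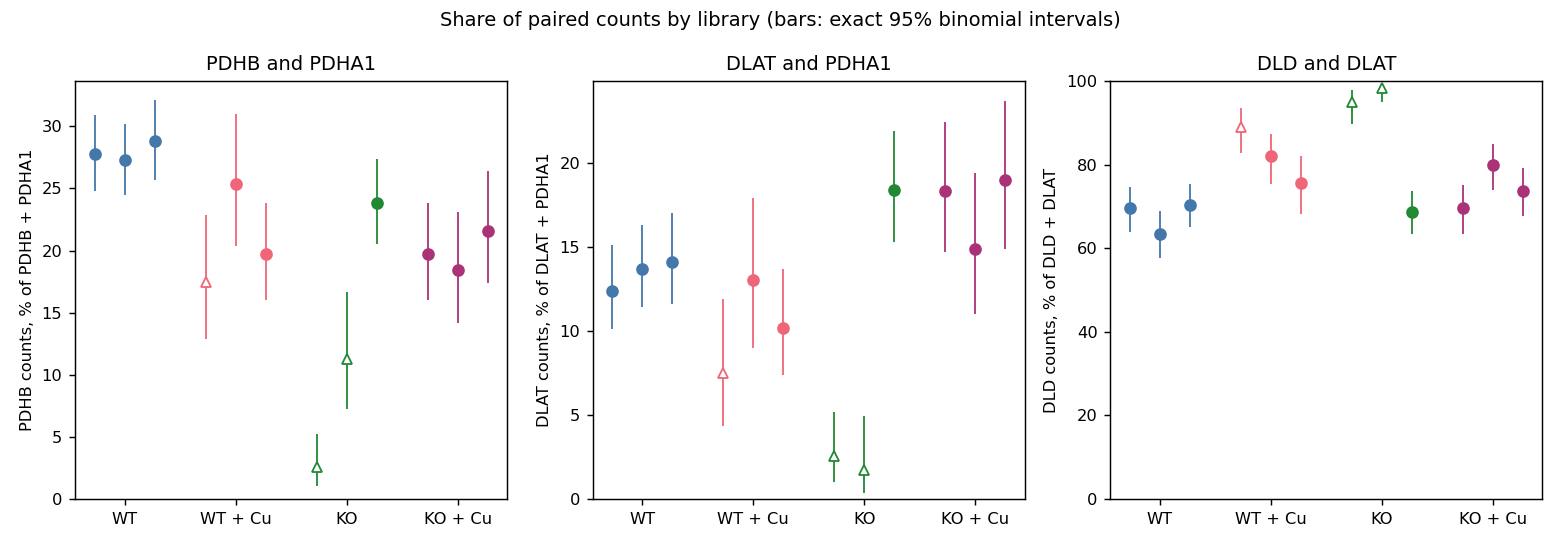
Share of 1 gene in the summed counts of a pair (vertical axes, percent) for PDHB with PDHA1, DLAT with PDHA1 and DLD with DLAT in the 12 libraries by group (WT, wild type; Cu, copper; KO, ATP7B KO). Points are libraries with exact 95% binomial intervals and open triangles the 3 that stood apart. ATP7B KO untreated replicate 1 had 2.55% PDHB and 2.55% DLAT against PDHA1, and replicate 3 had 23.8% and 18.4%.

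Untreated ATP7B KO and wild type cells differed in PDHB. PDHB was lower in ATP7B KO cells, 23.8 ± 20 against 66.2 ± 2.7 CPM (SD, n = 3), a log2 fold change of -1.56 ± 0.45 (SE; edgeR quasi-likelihood test, adjusted p = 0.022), in 3 of 3 libraries. It was the only one of the 9 tested genes called in this comparison, in which 31.9% of all 11051 tested genes were called and 14% were called lower. PDHB was 1 gene separated downward, as 19.1% of all tested genes were, and DLD 1 gene separated upward, as 25.7% were. DLD was higher in 3 of 3 ATP7B KO libraries, but its log2 difference of 0.88 ± 0.32 missed the threshold (adjusted p = 0.052). FDX1 and DLAT had log2 differences of -0.51 ± 0.62 and -0.96 ± 0.53 (adjusted p = 0.54 and 0.18), with overlapping libraries. The PDHB call ended without wild type untreated replicate 1, 2 or 3 (adjusted p = 0.054, 0.061 and 0.052), without ATP7B KO untreated replicate 2 (0.057), and when only the 2 groups were fitted (0.1). Without ATP7B KO untreated replicate 3, PDHB (log2 -2.46, adjusted p = 2.9e-05), DLAT (-2.72, 3.3e-05) and FDX1 (-2.31, 0.005) were called lower and DLD (1.18, 6.4e-04) and LIPT1 (1.47, 0.049) higher, beside 59% of all genes called in that fit.

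Without the 3 libraries that stood apart, the same comparison rested on ATP7B KO untreated replicate 3 alone, whose spread was taken to be that of the other groups. PDHB was then lower by -0.79 ± 0.18 (adjusted p = 5.5e-04), PDHA1 by -0.49 (0.014) and DLST by -1.70 (0.022), among 34.6% of genes called. FDX1, DLAT and DLD had log2 differences of 0.45, 0.06 and 0.11 (adjusted p = 0.22, 0.88 and 0.66). The values of FDX1 and DLAT thus lay on opposite sides of 0 with and without these libraries, while PDHB was lower in both fits.

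Copper in wild type cells separated 4 of the 9 genes without a call. FDX1, DLAT, PDHA1 and PDHB were lower in every copper library than in any untreated one, and 27.1% of all tested genes were separated in that direction. None of the 9 was separated upward, beside 21.3% of all tested genes. Their log2 fold changes were -0.70 ± 0.62 for FDX1, -1.06 ± 0.54 for DLAT, -0.61 ± 0.21 for PDHA1 and -1.18 ± 0.44 for PDHB (SE; edgeR adjusted p = 0.48, 0.21, 0.065 and 0.095). None of the 9 was called, against 14.9% of all tested genes. At an unadjusted p under 0.05 there were 2, PDHA1 and PDHB, beside 29.9% of all tested genes. DESeq2 and limma voom each called 1, PDHA1, beside 19.1% and 17% of all tested genes. LIAS and DLD had log2 fold changes of 0.31 ± 0.24 and 0.10 ± 0.32 with overlapping libraries (adjusted p = 0.41 and 0.87). The median over the 9 genes was -0.13, beside -0.03 over all tested genes.

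Several of these values crossed the threshold when libraries were left out. Without ATP7B KO untreated replicate 3, a library of neither group that enters the shared estimate of the spread, PDHA1 (adjusted p = 0.012), DLAT (0.0047) and PDHB (0.0031) were called, beside 33.1% of all genes. PDHB was also called without ATP7B KO untreated replicate 1 (0.0057, beside 17.5% of all genes), and PDHA1 without wild type copper replicate 3 (0.042, beside 12%). Without the 3 libraries that stood apart, PDHB fell by 1 ± 0.15 on the log2 scale (adjusted p = 1.7e-06), DLAT fell by 0.83 ± 0.22 (0.0024) and PDHA1 fell by 0.55 (7.8e-04), beside 40% of all genes called in that fit. FDX1 was then at -0.36 ± 0.28 (adjusted p = 0.31).

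Copper in ATP7B KO cells gave no call among the 9 genes, against 33.7% of all tested genes. LIAS (log2 fold change -0.72 ± 0.27 SE, edgeR adjusted p = 0.054) and PDHA1 (-0.46 ± 0.21, adjusted p = 0.1) were lower in all 3 copper libraries than in any untreated one, a separation that 25.1% of all tested genes showed in that direction and 19.1% in the other. They were also the 2 with an unadjusted p under 0.05, beside 45.9% of all tested genes. DESeq2 and limma voom called 0, beside 37.9% and 33.7% of all tested genes. FDX1 and DLAT had log2 fold changes of 0.96 ± 0.62 and 0.80 ± 0.54 (adjusted p = 0.24 and 0.26), PDHB 0.31 ± 0.46 (0.63) and DLD -0.58 ± 0.32 (0.17), all with overlapping libraries. The median was -0.23 over the 9 genes and 0.01 over all tested genes.

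Which untreated ATP7B KO libraries were used decided these values. Without replicate 3, copper raised FDX1 (log2 2.76, adjusted p = 0.0012), DLAT (2.55, 7.1e-05) and PDHB (1.19, 0.016) and lowered DLD (-0.89, 0.0052), LIAS (-0.92, 0.017) and PDHA1 (-0.66, 0.0052), beside 58.1% of all genes called in that fit. Without the 3 libraries that stood apart, FDX1 was at -0.01 ± 0.28 and DLAT at -0.23 ± 0.23 (adjusted p = 0.99 and 0.46), PDHB was lower by -0.47 ± 0.19 (0.048) and DLST higher by 1.62 (0.031), among 39.6% of genes called. PDHB was therefore called in opposite directions in these fits. DLST had 6 counts in ATP7B KO untreated replicate 3 and 11 to 16 in the ATP7B KO copper libraries.

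In copper, ATP7B KO cells held less LIAS than wild type cells. LIAS was 2.21-fold lower (log2 -1.15 ± 0.26 SE, edgeR adjusted p = 0.012), in 3 of 3 libraries. It was the only member called, beside 13.8% of all tested genes called and 8.03% called lower. The call held in 17 of 19 alternative analyses, with log2 values of -1.27 to -1.04. It ended without ATP7B KO copper replicate 1 (adjusted p = 0.065) or replicate 3 (0.053). FDX1 (1.16 ± 0.62, adjusted p = 0.24) and DLAT (0.90 ± 0.54, adjusted p = 0.3) were higher in every ATP7B KO library than in any wild type library, as were 26.4% of all tested genes. LIAS was separated downward, as were 20% of all tested genes. DLD, PDHA1 and PDHB had log2 differences of 0.20, 0.00 and -0.07 (adjusted p = 0.72, 1 and 0.94).

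Without wild type copper replicate 1 and the other libraries that stood apart, LIAS was lower by -1.12 (adjusted p = 7.1e-04), and FDX1 (0.81 ± 0.27, 0.018) and DLAT (0.65 ± 0.23, 0.022) were called higher, beside 37.9% of all genes. FDX1 and DLAT were also called without ATP7B KO untreated replicate 3 (adjusted p = 0.034 and 0.018, beside 31.2% of all genes). Both groups of this comparison have at least 2 libraries in that fit, so neither side of it is a lone library.

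The interaction is the copper effect in ATP7B KO minus that in wild type. It was called for none of the 9 genes by edgeR, DESeq2 or limma voom, against 4.93%, 16.6% and 1.47% of all tested genes. At an unadjusted p under 0.05 there were 3: LIAS (-1.03 ± 0.36 SE, adjusted p = 0.086), DLAT (1.86 ± 0.76, adjusted p = 0.12) and PDHB (1.49 ± 0.64, adjusted p = 0.13), beside 32.6% of all tested genes. FDX1 was at 1.67 ± 0.88 (adjusted p = 0.2). Without ATP7B KO untreated replicate 3, FDX1 (3.40, 0.0011), DLAT (3.56, 2.8e-05) and PDHB (2.32, 6.9e-04) were called higher in this contrast, and LIAS (adjusted p = 0.01) and DLD (0.015) lower, beside 51.5% of all genes called in that fit. Without the 3 libraries that stood apart none was called, with 8.78% of all genes called, and FDX1, DLAT and PDHB were at 0.36 ± 0.39, 0.60 ± 0.32 and 0.53 ± 0.25. The 5 comparisons share libraries, so their values stand side by side and are not independent of each other.

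**Figure D3:**
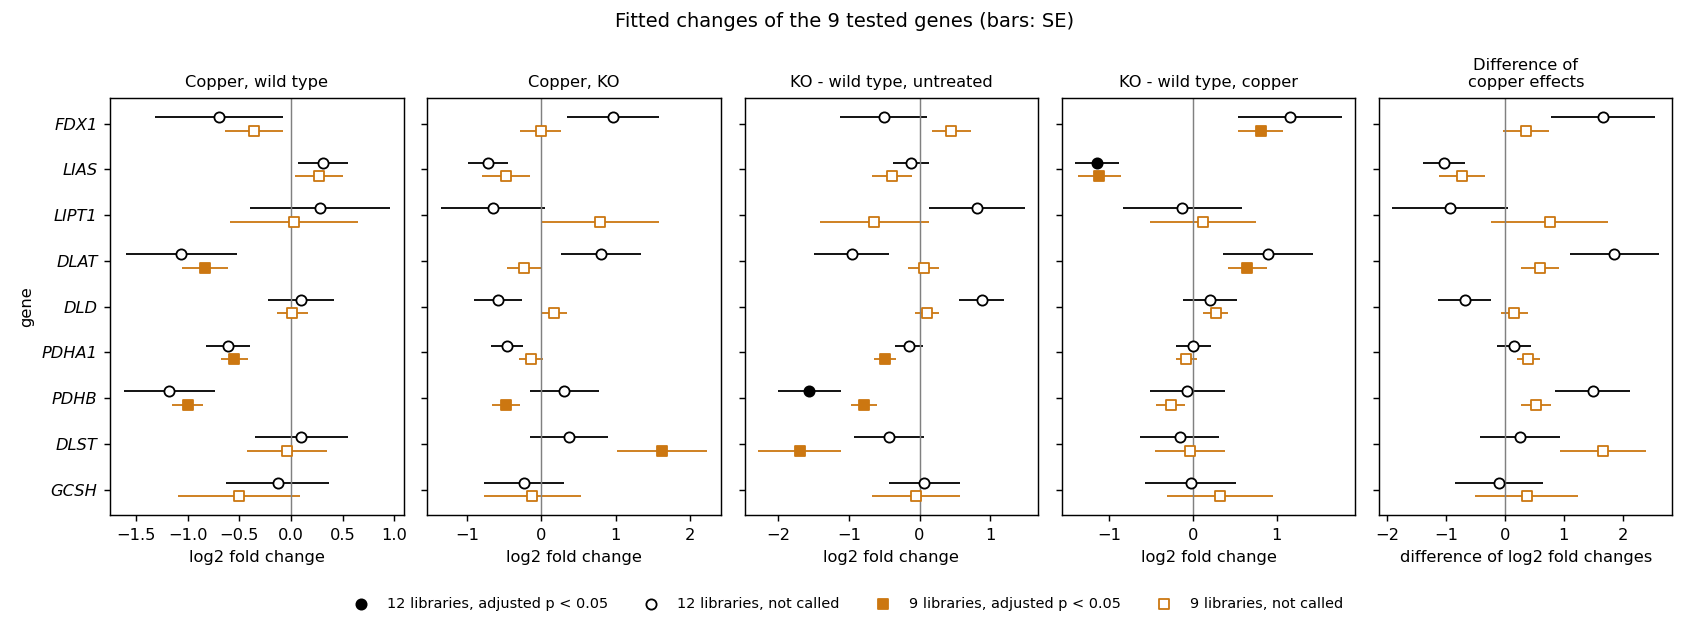
Fitted log2 differences (horizontal axes) of the 9 tested genes in the 5 comparisons, with bars for the SE. Black circles use all 12 libraries, orange squares the 9 left without those that stood apart, and filled symbols have an adjusted p under 0.05. With 12 libraries only PDHB (untreated, -1.56) and LIAS (copper, -1.15) were called, both between genotypes.

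FDX1, DLAT and PDHB were lower in ATP7B KO untreated replicates 1 and 2 than in replicate 3 or any wild type untreated library. PDHB in replicate 2, at 22.5 CPM, was not below wild type copper replicate 1 (22.4 CPM). DLD was higher in replicates 1 and 2 than in replicate 3, and LIAS was lowest in ATP7B KO copper. The 250 bases before the start of these 5 genes are therefore shown. They come from RefSeq (GRCh38.p14), which held a window for all 10 genes, and are written 5′ to 3′ in the direction of the gene with the strand after the coordinates. Capitals mark the core of the metal response element, which the metal-responsive factor MTF1 binds (TGCACNC or TGCGCNC), or the CCAAT box, a common promoter element, on either strand.
FDX1 chr11:110429698-110429947 +: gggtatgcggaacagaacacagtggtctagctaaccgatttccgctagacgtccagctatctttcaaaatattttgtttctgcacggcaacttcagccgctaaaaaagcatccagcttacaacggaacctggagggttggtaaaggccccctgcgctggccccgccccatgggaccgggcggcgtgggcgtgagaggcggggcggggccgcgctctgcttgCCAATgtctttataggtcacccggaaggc
DLAT chr11:112025158-112025407 +: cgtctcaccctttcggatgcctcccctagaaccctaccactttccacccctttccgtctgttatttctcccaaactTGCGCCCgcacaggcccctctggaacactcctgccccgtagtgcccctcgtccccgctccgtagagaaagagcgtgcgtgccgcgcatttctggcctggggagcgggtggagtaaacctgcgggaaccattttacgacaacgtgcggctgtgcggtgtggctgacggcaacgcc
PDHB chr3:58433833-58434082 -: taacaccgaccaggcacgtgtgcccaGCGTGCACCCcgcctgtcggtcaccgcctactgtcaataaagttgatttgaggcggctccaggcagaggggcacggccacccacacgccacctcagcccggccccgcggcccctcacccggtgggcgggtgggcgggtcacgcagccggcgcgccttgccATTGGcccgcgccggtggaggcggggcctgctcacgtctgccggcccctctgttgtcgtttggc
DLD chr7:107890857-107891106 +: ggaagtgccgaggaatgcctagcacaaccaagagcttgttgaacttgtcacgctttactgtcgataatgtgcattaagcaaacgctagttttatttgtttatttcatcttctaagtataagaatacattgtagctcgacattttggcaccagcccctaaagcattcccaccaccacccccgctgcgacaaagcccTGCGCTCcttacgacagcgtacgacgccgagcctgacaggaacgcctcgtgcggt
LIAS chr4:39458806-39459055 +: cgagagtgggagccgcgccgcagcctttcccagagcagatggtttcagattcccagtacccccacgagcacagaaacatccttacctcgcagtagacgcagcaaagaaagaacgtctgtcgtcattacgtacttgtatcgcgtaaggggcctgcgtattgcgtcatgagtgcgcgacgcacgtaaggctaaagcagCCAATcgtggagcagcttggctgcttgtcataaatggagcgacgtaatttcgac

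The FDX1 and LIAS windows each held 1 CCAAT box and no metal response core. DLAT and DLD each held 1 metal response core and no CCAAT box. PDHB held 2 overlapping metal response cores, 1 on each strand, and 1 CCAAT box. Over the 10 genes, 5 windows held the metal response core (LIPT1, PDHB, DLD, DLAT and DLST), as did 24.8% of 35116 windows of the same length. The CCAAT box was in 5 (PDHB, LIAS, FDX1, GCSH and PDHA1), beside 32% of all windows. The core of the antioxidant response element (TGACNNNGC on either strand) was in 1, GCSH, beside 10.9% of all windows. FDX1, DLAT and PDHB thus shared neither the metal response core nor the CCAAT box in all 3 windows. A match is a run of letters and not a measured site. The windows of the 10 genes held 14 to 27 CpG pairs (C followed by G), against a median of 11 over all windows. The shares over all windows were not matched for this.

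Genes around the pathway were read from 6 further lists. FDXR, the reductase that hands electrons to FDX1, had smaller adjusted p-values between the genotypes than any of the 9 tested genes. FDXR had 104, 117 and 122 CPM in wild type untreated and 115, 102 and 110 CPM in wild type copper. Its ATP7B KO levels were 468, 394 and 620 CPM untreated and 279, 282 and 285 CPM in copper. Every ATP7B KO library exceeded every wild type library. It was higher in ATP7B KO cells untreated (log2 1.98 ± 0.19 SE, edgeR adjusted p = 5.1e-05) and in copper (1.34 ± 0.18, 8.2e-04), and both calls held whichever library was left out and without the 3 that stood apart (2.24 and 1.33). With copper it fell by 0.69 ± 0.18 in ATP7B KO cells (adjusted p = 0.012), a call that ended without ATP7B KO copper replicate 3 (0.055).

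Among the 18 tested genes of iron-sulfur cluster assembly and ferredoxin partners, copper in ATP7B KO cells raised 4 and lowered 4, beside 15.2% and 18.5% of all tested genes. GLRX5, a mitochondrial glutaredoxin that carries iron-sulfur clusters, fell by 1.40 ± 0.22 (adjusted p = 7.6e-04), and HSPA9, the chaperone of cluster transfer, rose by 0.87 ± 0.19 (0.0045). GLRX5 was also lower in ATP7B KO than in wild type cells in copper (-1.21 ± 0.22, 0.0042), at 142 ± 16 against 323 ± 25 CPM (SD, n = 3). Those 3 calls held without each library in turn. In wild type cells copper raised 1 and lowered 3 of the 18, beside 8.23% and 6.68% of all tested genes. One of the 3 was BOLA3, a cluster transfer factor needed for lipoylation, by -0.94 ± 0.23 (adjusted p = 0.018), which ended without wild type untreated replicate 1, 2 or 3 (0.059, 0.077 and 0.059) or wild type copper replicate 1 or 2 (0.054 and 0.072). Untreated, 1 of the 18 was higher and 3 lower in ATP7B KO cells (17.9% and 14% of all tested genes), and in copper 1 and 1 (5.77% and 8.03%).

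Regulators of the lipoylated dehydrogenases moved in both directions. PDP1, the phosphatase that activates pyruvate dehydrogenase, rose with copper in wild type cells from 1.32, 1.83 and 1.68 CPM to 20.3, 8.71 and 8.52 CPM (log2 2.93 ± 0.58 SE, adjusted p = 0.0062). PDK2, a kinase that inactivates it, fell with copper in ATP7B KO cells from 22.9, 39.9 and 22.0 CPM to 6.77, 6.28 and 6.37 CPM (-1.97 ± 0.31, 7.5e-04). MPC1, a subunit of the mitochondrial pyruvate carrier, fell there too (-2.06 ± 0.36, 0.0013), as did BCKDK, the kinase of branched-chain ketoacid dehydrogenase (-1.28 ± 0.24, 0.0019), while PPM1K, its phosphatase, rose (1.29 ± 0.26, 0.003). These calls held without each library in turn, and the MPC1 change was -0.97 without the 3 libraries that stood apart. Of the 10 tested genes in the list, copper raised 1 and lowered 1 in wild type cells and raised 1 and lowered 3 in ATP7B KO cells, where 14.9% and 33.7% of all tested genes were called. Between the genotypes 1 was higher and 3 lower in ATP7B KO cells untreated, and 0 and 2 in copper, where 31.9% and 13.8% of all tested genes were called. PDK1, another of the inactivating kinases, was lower in untreated ATP7B KO cells (-1.70 ± 0.38, 0.0068, and -1.07 without the 3 libraries that stood apart) and BCKDK in copper (-1.12 ± 0.24, 0.0085).

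Of 7 tested other subunits of the lipoylated complexes, copper lowered 2 in ATP7B KO cells, beside 18.5% of all tested genes called lower there: DHTKD1, the decarboxylating subunit of 2-oxoadipate dehydrogenase, from 284, 310 and 90.3 CPM to 37.0, 46.9 and 44.2 CPM (log2 -2.32 ± 0.41 SE, adjusted p = 0.0014), and GLDC, of the glycine cleavage system, from 20.8, 70.6 and 10.4 CPM to 4.27, 6.28 and 5.97 CPM (-2.44 ± 0.61, 0.0095). Without the 3 libraries that stood apart these were -0.91 (3.9e-05) and -0.74 (0.12), so the GLDC call ended. In wild type cells copper raised 0 and lowered 1 of the 7 (8.23% and 6.68% of all tested genes). In ATP7B KO against wild type cells, 2 were higher and 1 lower untreated (17.9% and 14%), and 0 and 1 in copper (5.77% and 8.03%). With all 12 libraries, DHTKD1 was the only gene of the 6 lists called for the interaction (-2.20, edgeR adjusted p = 0.045). There, 3.67% of all tested genes were called lower. The DHTKD1 call ended in 11 of the 12 analyses that left out 1 library (adjusted p = 0.052 to 0.12). It held only without ATP7B KO untreated replicate 3. Without the 3 libraries that stood apart the value was -0.61, and the DHTKD1 call ended there too. Other genes of the lists were called for the interaction in that fit and without ATP7B KO untreated replicate 3.

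Of 15 tested genes of the tricarboxylic acid cycle, which the 2-oxoglutarate dehydrogenase belongs to, copper lowered 5 and raised 0 in wild type cells (6.68% and 8.23% of all tested genes) and lowered 1 and raised 3 in ATP7B KO cells (18.5% and 15.2%). SUCLG1, a subunit of succinyl-CoA ligase, was among the 5 (-0.74 ± 0.19, adjusted p = 0.021), and its call ended without wild type untreated replicate 1, 2 or 3 (0.067, 0.088 and 0.072) or wild type copper replicate 2 (0.096). IDH3B, a subunit of isocitrate dehydrogenase, rose in ATP7B KO cells (1.08 ± 0.22, 0.003, and 0.64 without the 3 libraries that stood apart). Untreated ATP7B KO cells had 5 lower and 0 higher (14% and 17.9% of all tested genes), among them the succinyl-CoA ligase subunit SUCLG2 (-1.04 ± 0.26, 0.011), at -0.47 without those libraries. In copper, with all 12 libraries, 0 of 15 differed by edgeR between the genotypes, beside 13.8% of all tested genes. At an unadjusted p under 0.05 there were 3, beside 29.4%. Without the 3 libraries that stood apart these list counts changed, and genes of the list were called in copper. The median log2 difference of the 15 genes between genotypes in copper was then 0.26 (0.34 with all 12 libraries). For copper in ATP7B KO cells it was 0.02 (0.18 with all 12). Mitochondrial fatty acid synthesis and S-adenosylmethionine supply provide the substrates of lipoyl synthesis. Of 7 tested genes of these, 1 was called with all 12 libraries, between untreated cells, where 31.9% of all tested genes were called. The other comparisons had 0, where 14.9%, 33.7%, 13.8% and 4.93% of all tested genes were called. CBR4 was the 1 gene, higher in untreated ATP7B KO cells (1.56 ± 0.41, edgeR adjusted p = 0.014), as were 17.9% of all tested genes. That call ended without wild type untreated replicate 1 or 2 (0.058 and 0.057) or ATP7B KO untreated replicate 2 (0.06), and the value was 0.19 without the 3 libraries that stood apart.

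The last list held 6 further genes of cuproptosis screens and of copper entry and exit, of which 4 were tested. With all 12 libraries copper raised 1 and lowered 1 of the 4 in wild type cells (8.23% and 6.68% of all tested genes). In ATP7B KO cells copper raised 2 and lowered 0 (15.2% and 18.5%). Between the genotypes 0 were higher and 1 lower in ATP7B KO cells untreated (17.9% and 14%) and in copper (5.77% and 8.03%). The interaction was called for 0 (4.93%). Copper raised MTF1, the metal-responsive transcription factor, in ATP7B KO cells (1.33 ± 0.31 SE, adjusted p = 0.007). In wild type cells copper raised MTF1 (1.15 ± 0.31, adjusted p = 0.029) and lowered ATP7B (-1.51 ± 0.41, 0.026). These 2 calls each ended in 5 of the 12 analyses that left out 1 library. For MTF1 these were without wild type untreated replicates 1 to 3 (0.085, 0.092 and 0.091) and wild type copper replicates 1 and 2 (0.12 and 0.071), and for ATP7B without wild type untreated replicates 1 to 3 (0.082, 0.086 and 0.082) and wild type copper replicates 2 and 3 (0.1 and 0.077). SLC31A1, the copper importer, was lower in ATP7B KO cells untreated (-0.80 ± 0.20, 0.011), at 98.9 ± 30 against 158 ± 6.6 CPM (SD, n = 3), and by -0.46 without the 3 libraries that stood apart. It was the 1 gene of the 4 called there, and also in copper (-0.75 ± 0.20, 0.026), where the call ended without wild type copper replicate 1 or 3 (0.08 and 0.066) or ATP7B KO copper replicate 1, 2 or 3 (0.1, 0.065 and 0.12). As a check of the labels, the metallothionein MT1X rose with copper by 6.15 ± 0.31 in wild type and 5.31 ± 0.32 in ATP7B KO cells (adjusted p = 3.2e-07 and 1.8e-06).

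**Figure D4:**
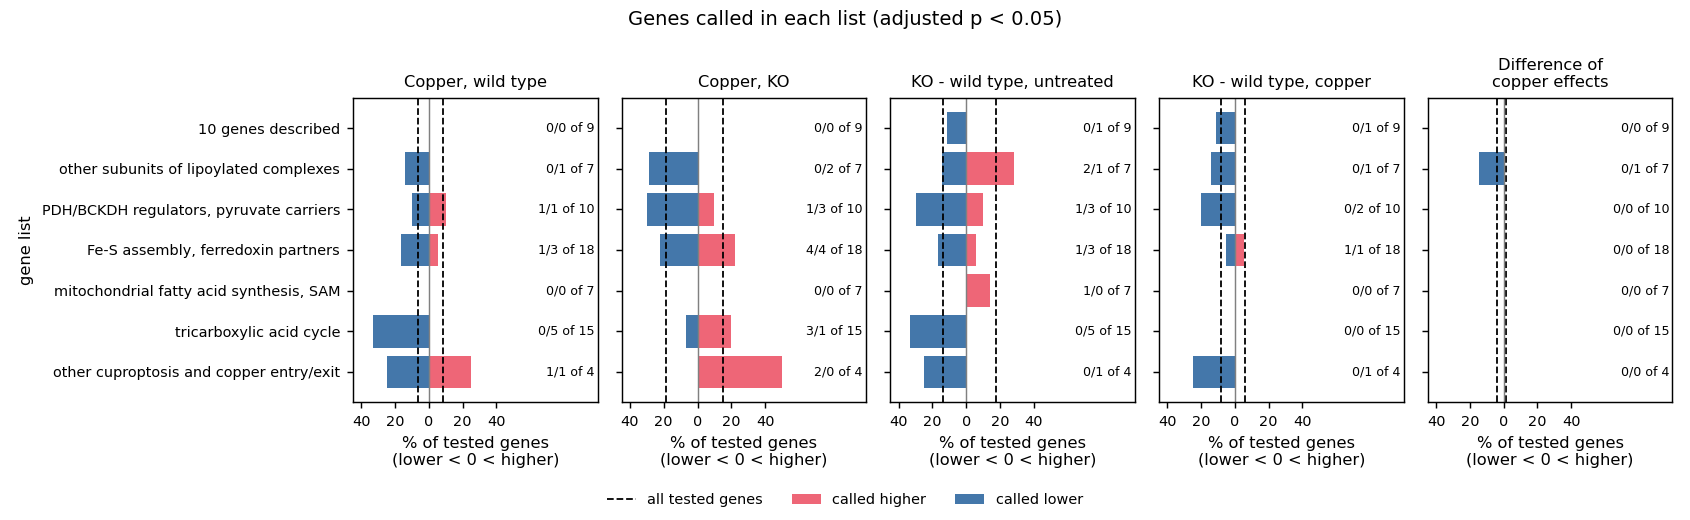
Share of tested genes called higher (red, to the right) or lower (blue, to the left) at an adjusted p under 0.05, in percent, for the 10 genes described and 6 related lists in the 5 comparisons. Numbers give genes higher/lower of those tested, and dashed lines mark the shares over all tested genes. The 10 genes had 1 call in each comparison between genotypes and 0 in the others.

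The genes whose levels ran most like those of FDX1 over the 12 libraries were BIRC2, MBP and RFC4, with root mean square differences of centred log2 CPM of 0.24, 0.25 and 0.32, where the median over tested genes was 1.21. Of the other members, DLAT came closest to FDX1 at 0.64 (rank 393), followed by PDHB at 0.69 (rank 565), while LIAS was at 1.37 (rank 7247). For LIAS the nearest were LCMT1, NBEAL1 and UFL1 at 0.17, 0.18 and 0.18, with a median of 0.77. These distances share the same 12 libraries, and the libraries that stood apart weigh heavily in those of FDX1.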

How the data were processed

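RNA of 12 HepG2 cultures was measured. The labels' protocols describe 3′ mRNA libraries (QuantSeq kit) from 100 ng of total RNA, with 300 bp fragments and single-end reads of 75 bp. The submitters' processing notes name STAR 2.3.0, HTSeq and the build hg19. For annotation, strand setting and filters, details were not given in the sources used here. Raw counts per gene, with no normalization, are what the authors deposited. Each read stands for about 1 transcript, so no length correction was applied. Amplified copies count like separate molecules, so intervals cover counting error only.

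CPM is a gene's count over the sum of its library, times 1000000. Symbols came from a gene name table and GENCODE annotation (45776 of 47634 identifiers, 99.5% of counts). With R 4.3.3 and edgeR 4.0.16, filterByExpr kept 11051 genes, scaling used trimmed means of M values, and a robust quasi-likelihood fit of 4 group means used all 12 libraries (biological coefficient of variation 29.1%). P-values were adjusted by Benjamini-Hochberg over all 11051 genes, and "called", "rose" and "fell" mean an adjusted p under 0.05. SE is the log2 fold change over the square root of F. Limma 3.58.1 (voom) and DESeq2 1.42.0 were alternatives. The steps were tested on simulated counts in which no libraries stood apart, so that test does not cover results that depend on such libraries. Members and lists were chosen with earlier results of these data known. From each further list, up to 4 genes with the smallest adjusted p in a comparison may be named, and the 3 genes nearest to FDX1 and to LIAS. The analysis without the 3 libraries that stood apart was chosen after seeing the data. Figures used matplotlib 3.10.9. Replicate numbers did not pair the libraries. Some results are not reported here.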

Additional observations from a re-analysis of the deposited data

How the results depend on the processing

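Depth limits the low genes: 3 counts were 0.783 to 3.07 CPM, and LIPT1, LIPT2, DLST and GCSH had at most 23 counts per library. Counts are of members, then, where given, of all genes, called. Shares of all tested genes called follow, in the order of the comparisons below. They were 8.82%, 18.1%, 17.6%, 8.05% and 9.77% without the filter, and 15.1%, 34.1%, 32.2%, 13.8% and 6.28% with relative log expression factors. By DESeq2 they were 19.1%, 37.9%, 36.9%, 18.3% and 16.6%, and by limma voom 17%, 33.7%, 32.8%, 14.7% and 1.47%. With only the 2 groups fitted they were 29.2%, 17.9%, 13.2% and 26.5%, with no interaction. Copper in wild type (0; 1648): members were 2 without the filter, 1 by DESeq2, 1 by limma voom, and 3 with only the 2 groups fitted (3044 genes) or without the 3 libraries that stood apart (4784). Copper in ATP7B KO (0; 3721): 1 with relative log expression factors, 1 without the filter and 2 without those libraries, with 1853 genes when only the 2 groups were fitted. ATP7B KO against wild type untreated (1; 3521): 2 with relative log expression factors, 4 without the filter, 2 by DESeq2, 0 with only the 2 groups (1421) and 3 without those libraries. In copper (1; 1525): 2 without the filter, 2 with only the 2 groups (2694) and 3 without those libraries (4527). Difference of copper effects (0; 545): 3 without the filter (2366), with 1831 genes by DESeq2, 163 by limma voom and 1050 without those libraries, where no member was called. Its calls were 25.5% higher, and 42.9% by limma voom and 44.7% without the filter. The cause of these moves was not tested. PDHB with copper in ATP7B KO reversed to -0.47 and DHTKD1 in untreated ATP7B KO against wild type to -0.06 without those libraries. Leaving out each library in turn gave 0 to 3, 0 to 6, 0 to 5, 0 to 3 and 0 to 5 members, and 734 to 3779, 2372 to 6635, 2058 to 6738, 675 to 3561 and 13 to 5882 genes, in the order above.

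A fit with the replicate number as a block called 0, 0, 1, 1 and 0 members, as without it, and 1490, 3714, 3521, 1276 and 113 genes. Samples of 1 number deviated together with correlations from -0.221 to 0.61, in no pair of groups above 0.1 for all 3 numbers, so the block rests on a number alone.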
